A study of Mus musculus with 7 samples.

Results

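The B lymphoid lineage genes examined here are 33 genes that act in B cell development and signalling, taken by name from the 21938 protein-coding genes of GENCODE M21 on mm10 (GRCm38). A CUT&Tag peak was linked to a gene when its summit lay at most 100 kb from the start of that gene. With GATA2, 34 of the 6254 peaks were linked to 21 of the 33 genes, and with 9aa-Ins 6 of the 1079 peaks were linked to 7. CUT&Tag uses an antibody to bring a transposase to a chromatin protein, and the DNA that it cuts and tags is sequenced. The cells were hi–77−/− cells, Hoxb8-immortalized progenitors from mouse fetal liver in which the −77 kb enhancer of Gata2 is deleted, and this genotype was common to all groups. They were infected with a retrovirus carrying HA-GATA2 or HA-9aa-Ins, a pathogenic GATA2 variant with extra residues in the spacer between its zinc fingers, and GFP+ cells were collected after 3 days. Both groups were profiled with anti-HA antibody, which targets the introduced protein and not endogenous GATA2, and the 3 anti-GATA2 libraries were left out because their peaks were not analysed here. The cells of a group were pooled and then split into 2 replicates, and each deposited list merges its replicates, so that no value below has a spread between replicates and no difference between the lists was tested.

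GATA2 is a zinc finger transcription factor of hematopoietic stem and progenitor cells that binds WGATAR, in which W is A or T and R is A or G, on either strand. B lymphopoiesis runs through a small circuit of factors in which E2A proteins (Tcf3) and FOXO1 precede EBF1, and EBF1 and PAX5 then switch on the genes of the pre-B cell receptor and commit the cell. The study compared gene regulation by GATA2 and 9aa-Ins in progenitors, B lineage genes included, and the peaks were read here to see where on these genes either protein was detected.

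The peak lists had similar backgrounds, 0.464 reads with GATA2 and 0.455 reads with 9aa-Ins. The pileup, which is the number of reads over a summit and was taken to count both replicates together, was at least 9 in both lists and had a median of 15 in the GATA2 list and 13 in the 9aa-Ins list. The total of reads behind a list was not analysed here. Shares below carry Wilson 95% intervals, and intervals cover counting error only.

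The shares of B lymphoid genes with a peak within 2 kb of the start were close to those of all protein-coding genes. GATA2 had peaks within 2 kb of the start of 5 genes, which were Ebf1, Tcf3, Tcf4, Igll1 and Vpreb1, and 9aa-Ins had 1 there, at Tcf3. The background over the whole annotation was 17.0% of protein-coding genes with a GATA2 peak and 4.34% with a 9aa-Ins peak within 2 kb of the start, against 15.2% (5 of 33, interval 6.65% to 30.9%) and 3.03% (1 of 33, interval 0.537% to 15.3%) of the B lymphoid genes. The map of distances shows that the wider window added mainly peaks that lay at other genes.

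**Figure D1:**
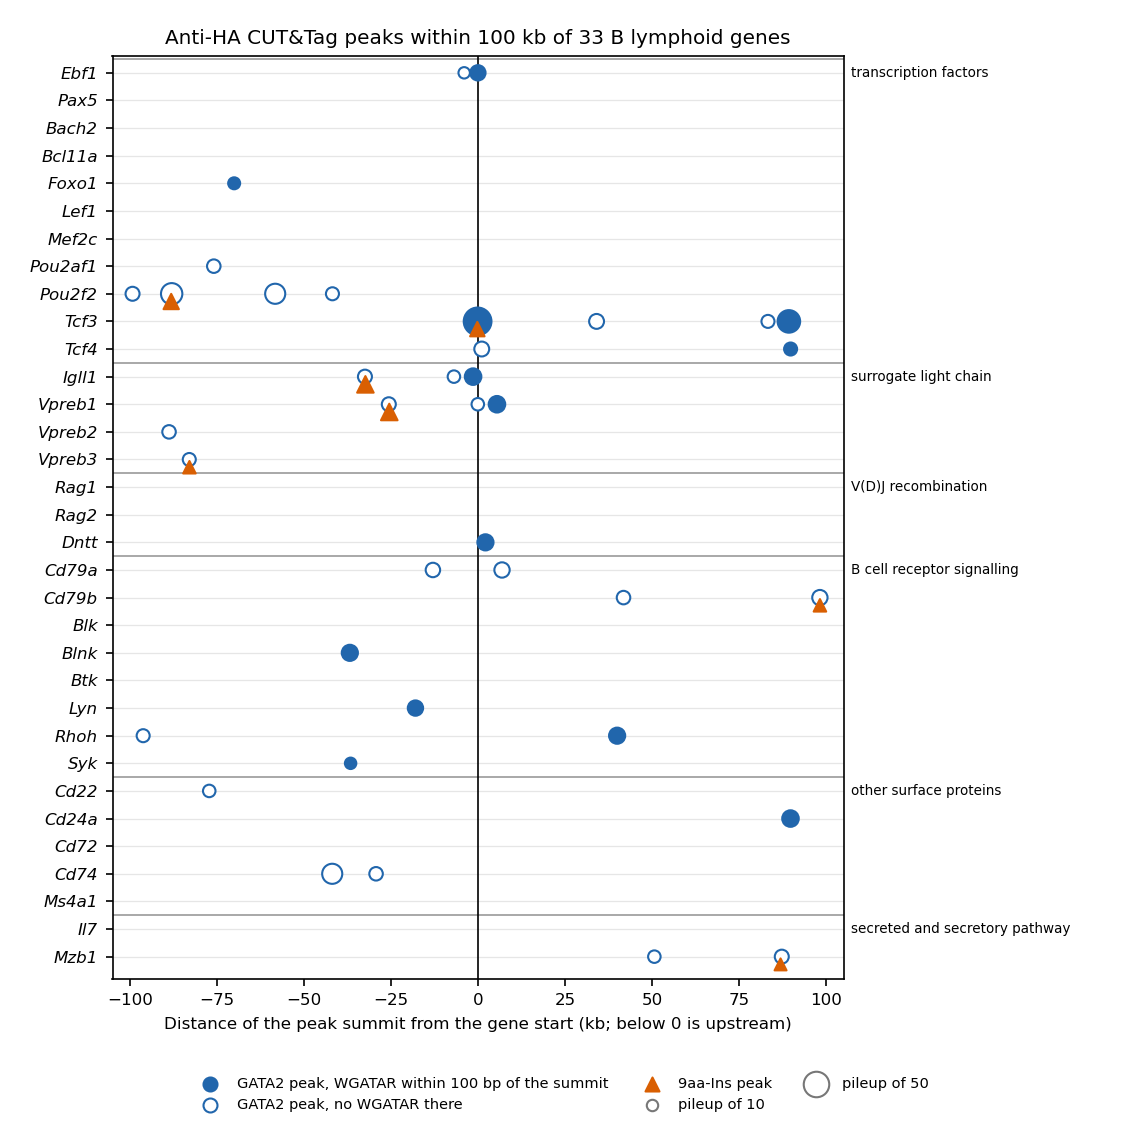
Distance of each peak summit from the start of the B lymphoid gene (kb, below 0 upstream), with circles for GATA2 peaks, filled where WGATAR lay within 100 bp of the summit, triangles for 9aa-Ins peaks, and area in proportion to the pileup. The largest circle is the GATA2 peak at the Tcf3 promoter (pileup of 59), and 12 genes have no peak of either list.

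Within 100 kb, 63.6% of the B lymphoid genes (21 of 33, interval 46.6% to 77.8%) had a GATA2 peak, against 52.1% of all protein-coding genes. With 9aa-Ins, the share was 21.2% (7 of 33, interval 10.7% to 37.8%) against 18.6% of all protein-coding genes. Both background shares lay inside the intervals of the B lymphoid genes. The median distance to the nearest GATA2 peak was 75.9 kb for the B lymphoid genes and 89.1 kb for all protein-coding genes, and to the nearest 9aa-Ins peak it was 577 kb and 641 kb. At 10 kb the share with a GATA2 peak was 21.2% for the B lymphoid genes and 21.7% for all, so the higher share held at 100 kb was not present close to the genes. All 7 genes with a 9aa-Ins peak also had a GATA2 peak.

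**Figure D2:**
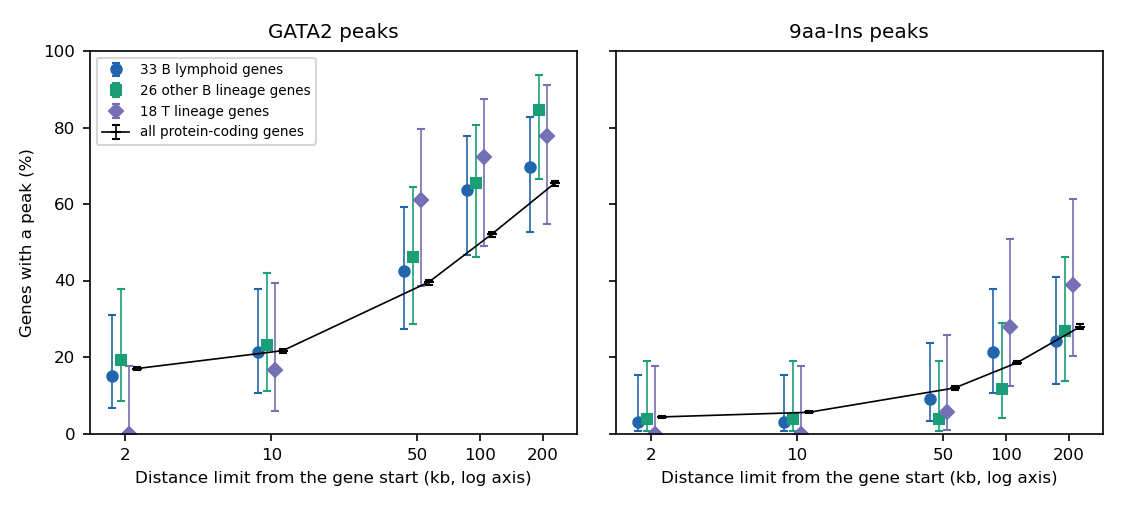
Share of genes with a peak (%) against the distance limit from the gene start (kb, log axis) for GATA2 peaks on the left and 9aa-Ins peaks on the right, with Wilson 95% intervals as bars. At 100 kb the B lymphoid genes stand at 63.6% with GATA2, and the line of all protein-coding genes (52.1%) passes through their interval.

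The number of neighbouring genes moved with the share that had a GATA2 peak, and its part in that share was not tested. For 9aa-Ins peaks this was not counted. Of all protein-coding genes with 0 to 2 other protein-coding starts within 100 kb, 35.3% had a GATA2 peak. Of those with 3 to 6, 57.9% did, and of those with 7 or more, 71.0% did. Among the B lymphoid genes, the shares were 53.3% (8 of 15), 63.6% (7 of 11) and 85.7% (6 of 7) in the same order. The median number of neighbours was 3 for both the B lymphoid genes and all protein-coding genes. The 100 kb limit fell between close values, as GATA2 peaks at 98.1 kb from Cd79b and 99.2 kb from Pou2f2 were inside it, and 2 peaks at 103 kb from Pou2f2 and 1 at 104 kb from Tcf3 were outside. For 9aa-Ins, peaks at 88.1 kb from Pou2f2 and 98.2 kb from Cd79b were inside, and peaks at 104 kb and 106 kb from Tcf3 were outside.

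Of the 34 GATA2 peaks, 11 had the start of a B lymphoid gene as the nearest protein-coding gene start, and these 11 peaks belonged to 9 genes (Ebf1, Foxo1, Tcf3, Tcf4, Igll1, Vpreb1, Dntt, Lyn and Cd24a). The other 23 peaks lay closer to the start of another gene, and 4 of the 34 peaks were linked to 2 of the 33 genes each. The sequences below are 7 of the GATA2 peaks that were nearest to a B lymphoid gene and held WGATAR, and they are shown for the number and layout of the motif. Each is the plus strand of GRCm38 within 100 bases of the summit, ended at the peak's edge or at the first untranslated base, with WGATAR in either orientation in capitals. For Tcf3 the window takes in the summits of both lists.
Ebf1 promoter, chr11:44617149-44617316: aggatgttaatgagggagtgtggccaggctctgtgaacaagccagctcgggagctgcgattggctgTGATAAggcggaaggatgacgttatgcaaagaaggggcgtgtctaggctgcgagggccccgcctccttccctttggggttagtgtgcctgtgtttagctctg
Tcf3 promoter, chr10:80433698-80433974: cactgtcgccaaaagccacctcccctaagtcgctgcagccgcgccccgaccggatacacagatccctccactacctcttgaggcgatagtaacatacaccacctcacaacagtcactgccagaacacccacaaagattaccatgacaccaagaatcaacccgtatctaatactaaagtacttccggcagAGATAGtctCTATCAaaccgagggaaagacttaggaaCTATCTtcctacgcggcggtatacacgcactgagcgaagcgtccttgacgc
Igll1 promoter, chr16:16865334-16865534: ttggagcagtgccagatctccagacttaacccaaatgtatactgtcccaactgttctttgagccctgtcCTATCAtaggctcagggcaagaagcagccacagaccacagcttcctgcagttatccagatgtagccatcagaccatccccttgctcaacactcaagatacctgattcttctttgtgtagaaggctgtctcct
Dntt intron, chr19:41031277-41031477: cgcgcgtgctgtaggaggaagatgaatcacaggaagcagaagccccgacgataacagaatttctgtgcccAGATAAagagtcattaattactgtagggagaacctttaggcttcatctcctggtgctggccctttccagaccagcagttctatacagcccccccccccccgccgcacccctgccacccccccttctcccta
Lyn upstream, chr4:3660034-3660216: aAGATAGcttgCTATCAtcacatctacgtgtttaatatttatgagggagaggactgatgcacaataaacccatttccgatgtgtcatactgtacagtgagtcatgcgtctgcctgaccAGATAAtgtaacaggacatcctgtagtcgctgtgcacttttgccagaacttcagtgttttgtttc
Foxo1 upstream, chr3:52198172-52198360: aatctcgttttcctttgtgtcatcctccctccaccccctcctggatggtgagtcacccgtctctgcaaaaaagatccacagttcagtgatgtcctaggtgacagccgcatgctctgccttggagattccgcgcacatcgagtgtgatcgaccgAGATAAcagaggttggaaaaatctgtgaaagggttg
Cd24a downstream, chr10:43667889-43668089: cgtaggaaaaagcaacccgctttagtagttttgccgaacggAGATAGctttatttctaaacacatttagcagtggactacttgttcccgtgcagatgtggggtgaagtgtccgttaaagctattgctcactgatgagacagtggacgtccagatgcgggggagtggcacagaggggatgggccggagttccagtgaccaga

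Among the 11 transcription factor genes, 6 had a GATA2 peak within 100 kb (54.5%, interval 28.0% to 78.7%, against 52.1% of all protein-coding genes). Of these, Pou2f2 and Tcf3 also had a 9aa-Ins peak (2 of 11, interval 5.14% to 47.7%, against 18.6%). Tcf3 (ENSMUSG00000020167.14, chr10:80409514-80433647, minus strand) encodes the E2A proteins, which are basic helix-loop-helix factors required at the start of B lymphopoiesis, and it held the tallest peak near any of the 33 genes. This GATA2 peak (chr10:80433613-80434192) had a pileup of 59 and a 41.0-fold enrichment over background. Its summit lay 151 bp before the gene start, and 99.4% of the GATA2 peaks were lower. The 9aa-Ins peak at the same promoter (chr10:80433723-80433967) had its summit 227 bp upstream and a pileup of 16. The pileup was thus 3.69 times as high with GATA2, a ratio between 2 lists that was not tested and that is not scaled for their read totals.

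The layout of motifs at the Tcf3 promoter is visible in its sequence. The 9aa-Ins summit had 3 WGATAR within 100 bp, of which a facing pair was separated by 3 bases, and the nearest was 16 bp from the summit. An ETS motif (CGGAAGT or AGGAAGT, either strand) lay next to this pair. The GATA2 summit, 76 bp away, had 1 WGATAR within 100 bp, at 92 bp, although the whole pair lay inside the GATA2 peak. Within 100 bp of the summit, 1 of 1079 9aa-Ins peaks (0.0927%) had a pair of WGATAR with at most 5 bases between them. This was the Tcf3 peak, whereas 0.688% of all GATA2 peaks had such a pair.

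Tcf3 had 3 more GATA2 peaks within 100 kb, each nearer to another gene. An intronic peak of Adamtsl5, 89.2 kb downstream of the Tcf3 start, had a pileup of 39 and 2 WGATAR within 100 bp of its summit. The others lay at the Mbd3 promoter (34.0 kb, pileup of 17) and near the start of Adamtsl5 (83.2 kb, pileup of 13), and neither had WGATAR within 100 bp of the summit.

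Ebf1 (ENSMUSG00000057098.14, plus strand, start at base 44617317 of chromosome 11) encodes the factor that specifies the B lineage, and it had 2 GATA2 peaks and no 9aa-Ins peak within 100 kb. The first GATA2 peak had its summit 68 bp upstream of the Ebf1 start (pileup of 18, 13.0-fold, above 66.3% of the list) and a TGATAA word 32 bp from the summit, shown in the Ebf1 sequence. The second lay 4.01 kb upstream with a pileup of 10 (above 1.79% of the list) and no WGATAR anywhere in the peak. The nearest protein-coding start was that of Ebf1 for both.

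Tcf4, which encodes another E protein, had a GATA2 peak 1.04 kb downstream of the start of its gene record with a pileup of 17 and no WGATAR, and another in an intron, 89.7 kb downstream, with a pileup of 13 and 2 WGATAR. Foxo1 encodes a forkhead factor that acts with EBF1 and induces the Rag genes, and its only peak lay 70.1 kb upstream with a pileup of 11 and an AGATAA word 56 bp from the summit. Pou2af1, the gene of the B cell coactivator OBF1, had its only peak 75.9 kb upstream, in an intron of Gm32742, with a pileup of 14 and no WGATAR within 100 bp of the summit. None of these 4 peaks overlapped a 9aa-Ins peak.

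Pou2f2 encodes OCT2, an octamer-binding factor of B cells. Its 4 GATA2 peaks lay 41.8, 58.3, 88.0 and 99.2 kb upstream of the start with pileups of 13, 31, 35 and 15. Those at 58.3 and 88.0 kb were tall for the list (above 93.6% and 95.8% of its peaks) but sat at the promoters of Gsk3a and Cic. The peak at the Cic promoter overlapped a 9aa-Ins peak with a pileup of 18, and none of the 4 had WGATAR within 100 bp of the summit.

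The other 5 transcription factor genes had no peak of either list within 100 kb. These were Pax5, which encodes the factor of B cell commitment, Bach2 and Bcl11a, which encode regulators of early and mature B cells, Lef1, which encodes a WNT pathway factor of pro-B cells, and Mef2c, which encodes a MADS box factor. The nearest GATA2 peak lay 302 kb from Pax5, 1009 kb from Bach2, 307 kb from Bcl11a, 454 kb from Lef1 and 159 kb from Mef2c. The nearest 9aa-Ins peak lay 302 kb from Pax5, at the same promoter as its GATA2 peak, and 412 kb or more from the other 4 genes.

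The surrogate light chain genes, whose products pair with the immunoglobulin heavy chain in the pre-B cell receptor, all had a GATA2 peak within 100 kb (4 of 4, interval 51.01% to 100%), and the 52.1% of all protein-coding genes lay inside the interval. With 9aa-Ins, 3 of the 4 had a peak (75%, interval 30.1% to 95.4%, against 18.6% of all protein-coding genes), but these 3 genes rested on 2 peaks, and the genes are not independent of each other. Igll1 (chr16:16860671-16863985, minus strand) encodes the λ5 subunit and Vpreb1 (chr16:16868403-16870843, minus strand) a VpreB subunit, and their starts lie close to each other, so that they shared 3 GATA2 peaks. The first (chr16:16865257-16865732) lay in the Igll1 promoter with its summit 1449 bp upstream, a pileup of 21 and a TGATAG word 28 bp from the summit, and it was 5.41 kb downstream of the Vpreb1 start. The second (chr16:16870901-16871082) lay 92 bp upstream of the Vpreb1 start with a pileup of 12 and no WGATAR, in a region that is also promoter of Top3b. Neither of these promoter peaks overlapped a 9aa-Ins peak.

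The third peak shared by Igll1 and Vpreb1 lay at the Ppm1f promoter, 32.5 kb and 25.6 kb upstream of their starts. Here the pileup was 15 with GATA2 and 21 with 9aa-Ins, the only 1 of the 6 overlapping pairs in which the 9aa-Ins value was the higher. This difference was not tested, and neither summit had WGATAR within 100 bp. The window around the 9aa-Ins summit is printed to show a peak of that list without the motif.
Ppm1f promoter, chr16:16896257-16896457: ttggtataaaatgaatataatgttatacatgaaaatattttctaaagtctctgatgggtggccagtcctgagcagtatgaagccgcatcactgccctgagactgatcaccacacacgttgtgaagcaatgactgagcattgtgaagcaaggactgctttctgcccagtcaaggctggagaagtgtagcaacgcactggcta

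Vpreb2, a near copy of Vpreb1, had 1 GATA2 peak, 88.8 kb upstream at the Dgcr2 promoter, with a pileup of 14. Vpreb3, which encodes a VpreB-like protein of the secretory pathway, had 1 GATA2 peak 83.0 kb upstream in an exon of Mif (pileup of 13) and an overlapping 9aa-Ins peak (pileup of 12). Sequence repeated elsewhere in the genome bears on both genes. Of the 31-base words within 1 kb of the start, 28.2% at Vpreb2 and 24.7% at Vpreb3 occurred more than once in the genome, the highest of the 33 genes, against 0.863% at Igll1 and 2.03% at Vpreb1. At the peaks in Mif the share was 52.0% around the GATA2 summit and 77.8% around the 9aa-Ins summit, so that reads there may be shared with copies, and how they were placed was not tested.

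Of the 3 genes of V(D)J recombination, only Dntt had a GATA2 peak within 100 kb (1 of 3, interval 6.15% to 79.2%, against 52.1% of all protein-coding genes). A 9aa-Ins peak was found at 0 of 3 (upper limit 56.15%, against 18.6%). Dntt (ENSMUSG00000025014.13, chr19:41029275-41059525, plus strand) encodes terminal deoxynucleotidyl transferase, which adds bases at the joints of immunoglobulin genes. Its GATA2 peak (chr19:41031011-41031644) lay in an intron 2102 bp downstream of the start with a pileup of 20, above 74.4% of the list, and an AGATAA word 28 bp from the summit. The same peak lay 36.8 kb upstream of Blnk, which encodes an adaptor between SYK and downstream signalling. Rag1 and Rag2, neighbours that encode the recombinase, had no peak within 388 kb and 413 kb of their starts.

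Of 8 genes of B cell receptor signalling, 6 had a GATA2 peak (interval 40.9% to 92.9%, against 52.1% of all protein-coding genes), and Cd79b alone also had a 9aa-Ins peak (1 of 8, interval 2.24% to 47.1%, against 18.6%). Cd79a and Cd79b encode the signalling chains of the receptor. The nearest peaks of Cd79a were at the Arhgef1 promoter (6.86 kb downstream, pileup of 18) and at the Rps19 promoter (13.0 kb upstream, pileup of 16). Those of Cd79b were at the Smarcd2 promoter (41.8 kb downstream, pileup of 14) and at the promoters of Ccdc47 and Ddx42 (98.1 kb, pileup of 18), where the 9aa-Ins pileup was 12. No peak near Cd79a or Cd79b had WGATAR within 100 bp of the summit.

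Among the kinase and GTPase genes, Lyn, Rhoh and Syk each had a GATA2 peak with WGATAR within 100 bp of the summit. Lyn (ENSMUSG00000042228.14, chr4:3678115-3813122, plus strand) encodes a SRC family kinase, and its peak 18 kb upstream of the start, outside any gene, had a pileup of 18 and 3 WGATAR within 100 bp, including a facing pair with 4 bases between them that is seen at the start of the Lyn sequence. Rhoh encodes a GTPase of lymphocytes, and its peak 39.9 kb downstream had a pileup of 20 and 2 WGATAR, whereas the peak 96.2 kb upstream, in N4bp2, had a pileup of 13 and none. Syk encodes the kinase that binds the phosphorylated CD79 chains, and its peak 36.6 kb upstream had a pileup of 10, as low as any near these genes, and 1 WGATAR at 42 bp, which lay outside the called peak. Blk, a SRC family kinase gene, and Btk had no peak within 294 kb and 2158 kb.

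Among the 5 genes of other surface proteins, 3 had a GATA2 peak (60%, interval 23.1% to 88.2%, against 52.1% of all protein-coding genes). A 9aa-Ins peak was found at 0 of 5 (upper limit 43.4%, against 18.6%). Cd24a, which encodes an anchored glycoprotein of immature B cells, had a peak 89.7 kb downstream with a pileup of 21 and 1 WGATAR, and Cd24a was its nearest protein-coding start. Cd22, the gene of an inhibitory co-receptor, had its only peak at the Usf2 promoter (77.2 kb, pileup of 12, no WGATAR). Cd74, the gene of the MHC class II invariant chain, had its nearest peaks at Rps14, with pileups of 14 at the promoter (29.3 kb) and 31 in an intron (41.9 kb), and neither had WGATAR within 100 bp. Cd72, which encodes another inhibitory co-receptor, lay 108 kb from its nearest peak, just beyond the limit, and Ms4a1, the gene of CD20, lay 346 kb away.

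Of the remaining genes, Mzb1, which encodes an endoplasmic reticulum protein of antibody-secreting cells, had GATA2 peaks at the promoters of Paip2 (50.6 kb, pileup of 12) and Matr3 (87.2 kb, pileup of 15). The latter overlapped a 9aa-Ins peak with a pileup of 11. Il7, the gene of the cytokine on which mouse B cell precursors depend, had no peak within 1153 kb.

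Peak height near the B lymphoid genes was close to that of the list as a whole. The median pileup of the 34 GATA2 peaks was 15 (quartiles 13 and 19.5, highest 59), as it was over all GATA2 peaks (quartiles 12 and 20), and 16 of the 34 were above that median. The 6 9aa-Ins peaks had a median pileup of 14 (11 to 21) against 13 over that list. Peaks of highest pileup were at Tcf3 (59), in Adamtsl5 near Tcf3 (39), at Cic (35) and Gsk3a (31) near Pou2f2, and in Rps14 near Cd74 (31), and of these only the first had a B lymphoid gene as its nearest start.

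**Figure D3:**
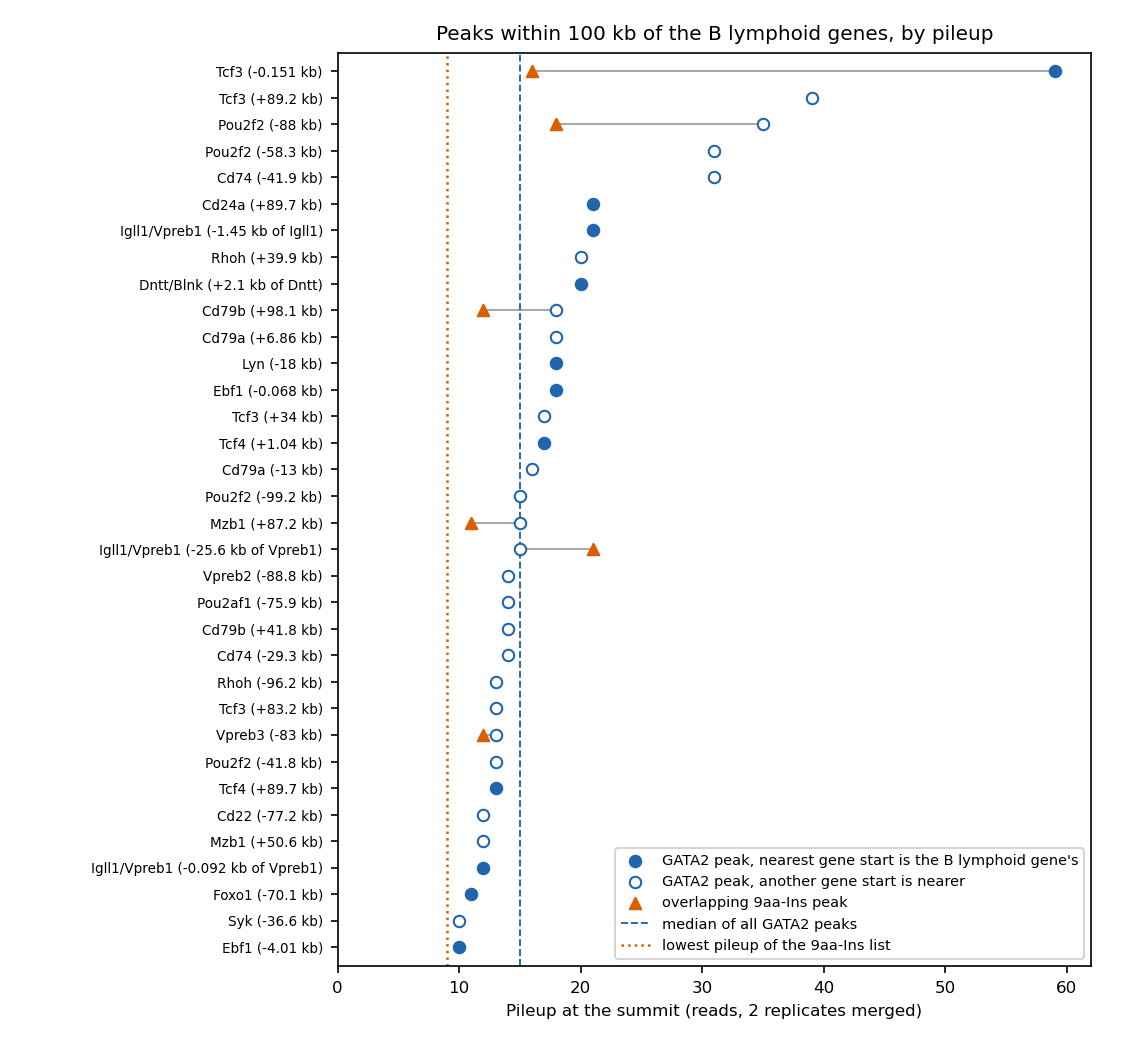
Pileup at the summit (reads) of each of the 34 GATA2 peaks within 100 kb of the B lymphoid genes, filled where the B lymphoid gene has the nearest start, with triangles for the 6 overlapping 9aa-Ins peaks and lines for the median GATA2 pileup (15) and the lowest pileup of the 9aa-Ins list (9). The Tcf3 promoter has the widest gap, and the 9aa-Ins value is the higher in 1 of 6 pairs.

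Of the 34 GATA2 peaks, 6 (17.6%, interval 8.35% to 33.5%) overlapped a 9aa-Ins peak, against 15.3% of all GATA2 peaks. All 6 9aa-Ins peaks near the B lymphoid genes overlapped a GATA2 peak, against 88.0% of that list, and all 6 summits were in promoters, against 69.0%. They lay at the promoters of Tcf3, Cic, Ppm1f, Mif, Ccdc47 and Ddx42, and Matr3, so that only Tcf3 is itself a B lymphoid gene. Only the Tcf3 peak had WGATAR within 100 bp (1 of 6), and 12.1% of all 9aa-Ins peaks did. The 28 GATA2 peaks with no overlapping 9aa-Ins peak had pileups of 10 to 39 (median 14.5), of which 10 were at least 2 times and 3 at least 3 times the lowest pileup of the 9aa-Ins list (9). No difference between the lists at these peaks was tested, as read totals and replicates were not analysed here.

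WGATAR was found within 100 bp of the summit in 32.4% of the 34 GATA2 peaks (11 of 34, interval 19.1% to 49.2%), against 30.3% of all GATA2 peaks. In flanking windows of equal length, centred 2 kb away on both sides, the share was 19.1% near the B lymphoid genes (13 of 68, interval 11.5% to 30.01%) and 29.9% for all GATA2 peaks. The motif fell unevenly among the 34. Of the 11 peaks nearest to the start of a B lymphoid gene, 8 had WGATAR (72.7%, interval 43.4% to 90.3%), and of the 23 peaks nearer to another gene start, 3 did (13.0%, interval 4.54% to 32.1%). The second group held more promoter peaks, 15 of 23 against 5 of 11, and promoter peaks of the whole list had WGATAR less often (13.9%) than other peaks (47.0%). Within promoters the counts were 3 of 5 against 0 of 15 (for which the upper limit is 20.4%), and outside them 5 of 6 against 3 of 8. This split by region was chosen after the values were seen and was not tested, and peaks that share a gene are not independent of each other.

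**Figure D4:**
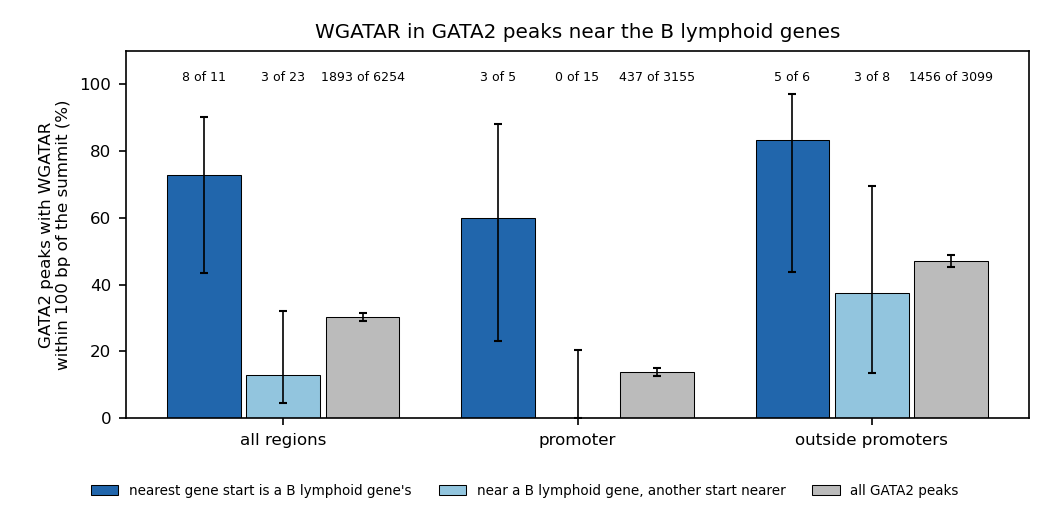
Share of GATA2 peaks with WGATAR within 100 bp of the summit (%), for peaks whose nearest start is that of a B lymphoid gene, for the others within 100 kb of one and for all GATA2 peaks, in all regions, in promoters and outside them, with Wilson 95% intervals as bars and the counts above. The first bar (8 of 11) stands above the interval of the second (3 of 23), with the widest intervals where 5, 6 or 8 peaks were counted.

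Other motifs within 100 bp of the summit were counted in the same 34 GATA2 peaks. An ETS motif was present in 3 (8.82%, interval 3.05% to 23.0%, against 12.8% of all GATA2 peaks), which were at the promoters of Tcf3, Rps19 and Rps14. The EBF motif CCCNNGGG, which reads the same on both strands, was present in 1 (2.94%, interval 0.521% to 14.9%, against 12.3%), the intronic Rps14 peak near Cd74. Both background shares lay inside the intervals. An E-box (CANNTG) with 6 to 14 bases to WGATAR is the layout bound by GATA factors with TAL1 and E proteins. It was found in 0 of 34 (upper limit 10.2%), against 3.01% of all GATA2 peaks. A facing or tandem pair of WGATAR with at most 5 bases between was found within this window at Lyn alone (1 of 34). The pair inside the Tcf3 promoter peak ran past the 100 bp limit of the GATA2 summit and was not counted.

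The DNA of the gene starts was read as well, from RefSeq promoter windows (GRCm38.p6, 250 bases before to 50 after the start), which held 31 windows for 24 of the 33 genes. No window was matched for Blk, Cd24a, Cd74, Cd79b, Il7, Lyn, Ms4a1, Mzb1 and Tcf4. WGATAR was present in 6 of the 31 (19.4%, interval 9.19% to 36.3%), at Bach2, Dntt, Lef1, Rag1, Syk and Vpreb3, against 29.8% of all 32851 windows, a share inside the interval. The ETS motif was present in 9 (29.0%, interval 16.1% to 46.6%), at Blnk, Cd72, Cd79a, Lef1, Mef2c, Pou2f2, Rag1, Tcf3 and Vpreb3, against 15.1% of all windows, which lay just outside the interval. The intervals take the 31 windows as independent, although they came from 24 genes, and no difference was tested. The EBF motif was present in 3 (9.68%, interval 3.35% to 24.9%), at Cd22, Foxo1 and Igll1, against 13.7%. The E-box with WGATAR was present in 0 (upper limit 11.0%), against 1.77%. The RefSeq starts can differ from the GENCODE starts used for the peaks, and the Ebf1 windows lay downstream of the GENCODE start and so did not take in the TGATAA word of the Ebf1 sequence.

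Further gene lists were counted in the same way. Of 26 other B lineage genes, 17 (65.4%, interval 46.2% to 80.6%) had a GATA2 peak within 100 kb. Of 18 T lineage genes, 13 (72.2%, interval 49.1% to 87.5%) did. The 52.1% of all protein-coding genes lay inside both intervals. A 9aa-Ins peak within 100 kb was found for 3 of the 26 genes (11.5%, interval 4.003% to 29.0%). For the T lineage genes it was 5 of 18 (27.8%, interval 12.5% to 50.9%). The 18.6% of all protein-coding genes lay inside both of these intervals. Within 2 kb of the start, GATA2 peaks were found at 5 of the 26 genes (19.2%, interval 8.51% to 37.9%), which were Cd37, Ikzf1, Plcg2, Sox4 and Xbp1. Of the 18 T lineage genes, 0 had such a peak (upper limit 17.6%). The 17.0% of all protein-coding genes lay inside both intervals. At Xbp1, the gene of a factor of antibody-secreting cells, GATA2 had a pileup of 15 and an overlapping 9aa-Ins peak lay 384 bp from the start with a pileup of 10. Other genes of these lists with a 9aa-Ins peak included Cd37 (84.7 kb) among the B lineage genes and Cd4 (59.0 kb), Cd5 (49.9 kb), Cd8a (67.3 kb), Ptcra (82.7 kb) and Tcf7 (77.6 kb) among the T lineage genes, and for each the nearest such peak lay at another gene and overlapped a GATA2 peak.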

How the data were processed

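Anti-HA CUT&Tag was run on hi–77−/− cells with HA-GATA2 or HA-9aa-Ins, in 2 replicates each. According to the submitters' notes, the authors aligned reads to mm10 with Bowtie2, called peaks with MACS3 at a q-value of 1e-06 and used deepTools, with versions not given in the sources used here. The authors deposited 1 peak list per construct, named as replicate-merged, whereas the study's methods describe peaks called in each replicate and then merged. Each list had a single background, so 1 call on merged reads was assumed, and the pileups rest on this. Its values are a fold enrichment (a ratio over the background), the −log10 p-value and the −log10 q-value of each peak, as the authors' caller gave them, and the summit position. The columns held no values of other samples (0 columns).

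Fold enrichments were whole multiples of 1 step (100% within 0.001), which gave the pileup and the background, and Poisson p-values computed from these were within 5.19e-04 of the deposited ones on the −log10 scale. Genes were those of GENCODE M21, 0 peaks lay beyond the end of a GRCm38 chromosome, and promoters covered 2 kb before and 100 bp after each protein-coding transcript start. Peaks that overlapped by at least 1 bp were counted as shared. Motifs were searched within 100 bp of the summit, and repeated sequence was counted over 31-base words of the genome. Scripts used Python, NumPy, pandas and SciPy and were tested on simulated data. All 33 genes were accounted for, with the nearest peak of each gene, further peaks where tallest or shared, and the distance for genes without one. Of the other lists, genes with a 9aa-Ins peak or a peak within 2 kb of the start were named, except 1 that is counted but not reported here. The genes and lists were chosen with earlier results of these data known. No test was run, because each list is 1 merged sample. Gene expression was not analysed here.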

Additional observations from a re-analysis of the deposited data

How the results depend on the processing

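No paired analysis was possible because the replicates of a construct are merged in the files, and for the same reason no replicate could be left out. A count was taken as unmoved within 1.5 times its value, and a share or difference inside the 95% interval of its value, which is wide with 33 genes or 34 peaks, and by these limits 27 of 40 alternatives over 6 results left the value unmoved. The counts of B lymphoid genes with a GATA2 peak moved from 21 to 7 at a limit of 10 kb and to 9 when only the nearest protein-coding gene was linked to a peak. Those with a 9aa-Ins peak moved from 7 to 1 at 10 kb, to 3 at 50 kb and to 1 when only the nearest gene was linked. Fewer links are possible by construction in each of these settings. The share of B lymphoid genes with a GATA2 peak minus that of all protein-coding genes, 11.5 percentage points at 100 kb, turned to -0.45 at 10 kb. It kept its direction under the other alternatives but fell to 2.83 at 50 kb and 4.28 at 200 kb, and was at most 11.9. The same difference for 9aa-Ins, 2.66 percentage points, turned to -2.50 at 10 kb, -2.81 at 50 kb, -3.71 at 200 kb, -0.79 with the start of any protein-coding transcript and -1.29 with the nearest gene only. It was 4.83 and 4.03 at q-values of 1e-8 and 1e-10, so it had no stable direction. The share of GATA2 peaks with WGATAR, 32.4%, moved to 72.7% when only the nearest gene was linked, and the cause was not tested. It moved to 50% with the motif anywhere in the peak (41.3% of all GATA2 peaks). That setting searched the whole peak (median width 434.5 bp near the B lymphoid genes) instead of 100 bp on each side of the summit. The share that overlapped a 9aa-Ins peak, 17.6%, ranged from 9.09% with the nearest gene only to 23.8% at 200 kb. The depth limits what a missing 9aa-Ins peak shows, as peaks under a pileup of 9 are not in either list.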
